A study of Mus musculus with 21 samples.

Results

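Transcripts of 32 p53 target genes, the tumor suppressor p53 and its inhibitors included, were followed in mouse hearts after doxorubicin (DOX), with and without a tumor. The members were taken by gene symbol from 1 table of 56691 genes, which holds a row for each of the 32, and 18 of them carry the p53 signaling pathway in the annotation deposited with the table. The hearts came from mice given saline (NS, Control in the labels, 5 libraries), mice given DOX (DOX, 5 libraries), tumor-bearing mice given saline (Tumor+NS, Tb in the labels, 6 libraries) and tumor-bearing mice given DOX (Tumor+DOX, Tb-DOX in the labels, 5 libraries). Tumors were raised by subcutaneous injection of 4T1 cells, a mouse breast cancer line, and DOX was given intraperitoneally at 5 mg/kg in 3 weekly injections per the study's methods. No strain, age, sex or genotype of the mice is given in the sources used here, and whether each library was a separate mouse is not stated either, so that p-values measure the spread between these libraries. The design asks how DOX changed these transcripts in each state and whether the change differed between the states.

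p53 is a transcription factor that is kept low by the ubiquitin ligase Mdm2 and its partner Mdm4, mainly through breakdown of the protein, and that accumulates after DNA damage. DOX is an anthracycline that traps topoisomerase II on DNA and so breaks it. Stabilised p53 binds response elements near its target genes, and the best known targets halt the cell cycle, favour mitochondrial or receptor-driven apoptosis, repair DNA, limit oxidative stress or, as Mdm2 itself, close a feedback loop.

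By their labels all libraries come from the 4T1 line, whereas the study describes the sequenced samples as heart tissue. All 7 cardiomyocyte markers were present, and their summed level was 40585 to 76861 CPM (counts relative to the library's total, scaled by TMM, which equalises the bulk of genes between libraries) across the 21 libraries, whereas the 5 epithelial markers that 4T1 cells would carry summed to at most 4.60 CPM. The cardiomyocyte sum was higher with DOX, at 67803 to 76861 CPM against 46790 to 63512 CPM in NS and at 55051 to 66904 CPM in Tumor+DOX against 40585 to 48560 CPM in Tumor+NS. Most of this sum was Myh6 and Tnnt2. Ryr2 alone of the list had lower means with DOX, at 1837 CPM against 2004 CPM in NS and 1564 CPM in Tumor+DOX against 1849 CPM in Tumor+NS. Without a tumor, the 6 macrophage markers summed to 38.9 to 76.4 CPM in DOX against 96.3 to 119 CPM in NS. Of these, Cd68 alone had a higher mean in DOX, at 7.01 ± 4.90 CPM against 5.05 ± 0.96 CPM (SD, n = 5 each). The 5 erythroid markers summed to 4.73 to 132 CPM in DOX against 204 to 797 CPM in NS, and to 2.41 to 28.9 CPM in Tumor+DOX against 370.0 to 832 CPM in Tumor+NS. The 5 neutrophil markers summed to at least 449 CPM in every tumor-bearing heart and at most 50.3 CPM in the others. The 6 fibroblast markers overlapped in sum, at 876 to 1428 CPM in DOX against 1118 to 1586 CPM in NS. Of them, Col1a1, Col1a2, Col3a1 and Postn had lower means in DOX, and Pdgfra and Dcn had higher ones. In a piece of tissue, fewer cells of a type and less RNA per cell cannot be told apart, and the part of cell makeup in the results given here was not tested. The library Tumor+NS replicate 5 stood apart: it was the highest of its 6 in 14 of 30 members and in 33.0% of all genes tested, it had the highest sum of neutrophil markers (4125 CPM), and its 8 T cell and thymocyte markers summed to 46.7 CPM, nearly all of it Cd3e at 42.7 CPM. The tumor-bearing values that it moved most are therefore given with and without it. DOX replicate 4 had a higher sum of T cell and thymocyte markers, 311 CPM, again nearly all Cd3e (310.6 CPM), and was the highest DOX heart for Cdkn1a, Trp53inp1, Fas, Sesn1, Xpc and Btg2. Without it, the calls of Fas and Ccng1 in DOX against NS were lost and those of Cdkn1a, Trp53inp1, Sesn1 and Xpc were kept.

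p53 binds a 20-base element built from a pair of p53 decamers, and the upstream sequences of the members that the results turn on are shown here to place such letters beside the measured changes. RefSeq promoter windows (GRCm38.p6, 300 bases, of which 250 lie before the start) were found for 24 of the 32 members, 34 windows in all. An exact p53 decamer was present on either strand in 11 of the 34 windows (32.35%), against 2745 of 32851 windows over all genes (8.356%). A near-full element, allowing at most 3 mismatches over 20 bases but none in the C and G of each decamer core, was present in 9 of the 34 (26.47%) against 1.379% of all windows, and exact decamers can lie inside it. The members were picked as p53 targets, so a higher share than over all genes is no test. Counts are of windows, and the overlapping windows of Aen hold the same element, which is counted in each. In the 250 bases before the start that follow, capitals mark these matches and all other letters are in lower case. Cdkn1a is shown for its large rise with DOX (chr17:29090729-29090978, plus strand), Ccng1 for its fall (chr11:40755287-40755536, minus strand), Sesn1 for its rise (chr10:41887189-41887438, plus strand), Mdm2 as the classical feedback target (chr10:117710759-117711008, minus strand) and Dcxr because it rose in both states (chr11:120727285-120727534, minus strand).
Cdkn1a: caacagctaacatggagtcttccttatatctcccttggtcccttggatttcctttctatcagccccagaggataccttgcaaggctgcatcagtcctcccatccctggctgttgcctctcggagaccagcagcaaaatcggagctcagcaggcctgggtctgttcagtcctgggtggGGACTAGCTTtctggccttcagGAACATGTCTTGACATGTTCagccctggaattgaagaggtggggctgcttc
Ccng1: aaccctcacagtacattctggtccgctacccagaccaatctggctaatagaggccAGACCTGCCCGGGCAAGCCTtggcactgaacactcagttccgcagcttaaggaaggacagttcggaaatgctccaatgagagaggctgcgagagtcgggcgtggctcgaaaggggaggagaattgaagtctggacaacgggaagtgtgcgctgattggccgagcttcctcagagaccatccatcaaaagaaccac
Sesn1: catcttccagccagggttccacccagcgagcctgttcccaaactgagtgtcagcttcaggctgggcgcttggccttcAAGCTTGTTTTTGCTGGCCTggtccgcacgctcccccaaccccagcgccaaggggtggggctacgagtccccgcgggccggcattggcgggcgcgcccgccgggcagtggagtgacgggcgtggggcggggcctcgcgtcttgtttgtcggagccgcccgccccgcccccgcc
Mdm2: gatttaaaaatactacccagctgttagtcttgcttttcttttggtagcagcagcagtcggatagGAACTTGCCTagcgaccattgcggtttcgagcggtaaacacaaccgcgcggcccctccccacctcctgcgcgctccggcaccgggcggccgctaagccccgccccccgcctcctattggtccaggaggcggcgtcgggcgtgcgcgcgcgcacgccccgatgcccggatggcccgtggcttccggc
Dcxr: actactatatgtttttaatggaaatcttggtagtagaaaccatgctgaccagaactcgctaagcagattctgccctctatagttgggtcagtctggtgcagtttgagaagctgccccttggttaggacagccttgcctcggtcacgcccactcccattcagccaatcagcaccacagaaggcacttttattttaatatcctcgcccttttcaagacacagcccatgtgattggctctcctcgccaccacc
The Cdkn1a window, which lies before the more upstream of the 2 starts in the table, held a near-full element 51 bases before the start with 1 mismatch, and a further decamer 73 bases before it. Ccng1 held a near-full element with 1 mismatch 195 bases before its start, Sesn1, at the more downstream of its 2 starts, one with 3 mismatches 173 bases before, and Mdm2 a single decamer 186 bases before. The windows of Dcxr, Ercc5 and Fas and those at the other starts of Cdkn1a and Sesn1 held no match. A match is a description of these letters, and elements outside the window, such as those in first introns, were not searched. Trp53inp1, Ddb2, Perp, Pmaip1, Tnfrsf10b, Rrm2b, Zmat3 and Xpc had no window in the table.

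In non-tumor-bearing mice, DOX raised a subset of the members and left most without a detectable change. Of the 30 members whose FPKM, a level per length, averaged 0.5 or more, 8 rose at an adjusted p under 0.05 in edgeR's quasi-likelihood test over 13990 genes (called, from here on): Cdkn1a, Trp53inp1, Dcxr, Perp, Fas, Sesn1, Ercc5 and Xpc. These 8 are 26.7% of the members tested, beside 18% of all genes. One member, Ccng1, fell, which is 3.33% of the members beside 18.2% of all genes. By other tools, DESeq2 called 8 as higher and 1 as lower, and limma 6 and 2. At least 2-fold, 3 of the 30 members rose beside 4.16% of all genes and 0 fell beside 5.79%. All DOX hearts lay beyond all NS hearts for 7 higher members (23.3% beside 12.0%) and 1 lower member (3.33% beside 13.3%). The median log2 fold change was 0.12 over the 30 members and 0.00 over all genes, and the median size of change regardless of sign was 0.31 over the members and 0.35 over all genes.

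In tumor-bearing mice, DOX raised 2 members, Perp and Dcxr, which are 6.67% of the 30 beside 2.18% of all genes. Dcxr alone rose at least 2-fold (3.33% of the members beside 0.443%). None of the 30 fell in edgeR, beside 2.54% of all genes and 0.665% at least 2-fold. At an unadjusted p under 0.05, 1 member was lower, and DESeq2 and limma called 0. Libraries did not overlap for 3 higher members, Perp, Dcxr and Sulf2 (3 of 30, beside 2.73% of all genes), and for 0 lower members beside 2.23%. The median log2 fold change was 0.04 over the members and -0.02 over all genes.

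**Figure D1:**
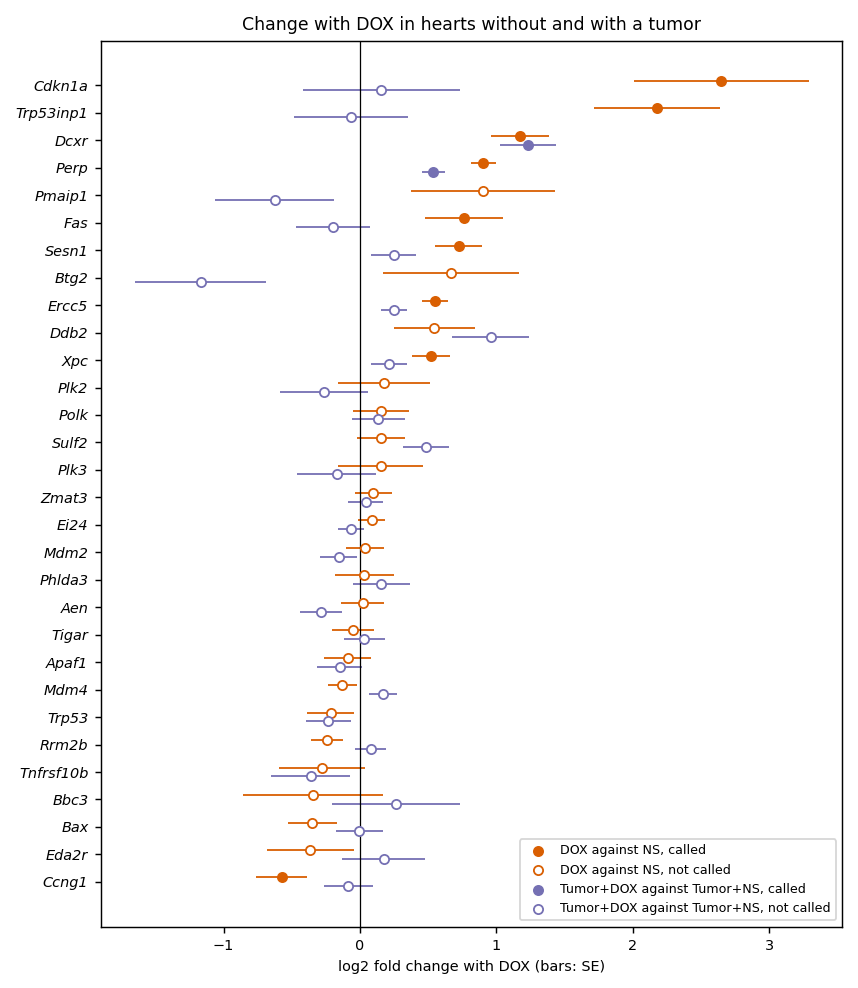
Log2 fold change with DOX (x axis) of the 30 members tested (y axis), without a tumor (orange) and with one (purple), with bars of 1 SE; filled points were called at an adjusted p under 0.05. Cdkn1a at 2.65 and Trp53inp1 at 2.18 stand out without a tumor, whereas with a tumor they lie near 0 with wide bars, and Dcxr and Perp are filled in both states.

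Trp53, which encodes p53 itself, was not called with DOX in either state. Its level was 11.03, 12.4, 10.7, 14.0 and 17.4 CPM in the 5 NS hearts and 10.01, 9.0, 13.5, 8.78 and 15.03 CPM in the 5 DOX hearts. The 2 groups overlapped over most of their range. Tumor+NS hearts lay at 12.4 to 14.0 CPM with a median of 13.4 CPM, and Tumor+DOX hearts at 12.4, 8.79, 9.27, 14.9 and 11.01 CPM. The log2 fold change with DOX was -0.22 ± 0.17 (SE) without a tumor (adjusted p = 0.34) and -0.23 ± 0.16 with one (adjusted p = 0.45). A gene of mean FPKM 1.62 on the opposite strand shares 324 bases with Trp53, and the strand setting of the counting is not stated, so reads of the pair may be mixed.

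Mdm2, the feedback inhibitor of p53, whose window carries a p53 decamer, was not called with DOX in either state. It was at 64.5, 59.6, 57.3, 74.6 and 62.2 CPM in NS and at 67.5, 66.0, 77.8, 51.4 and 63.8 CPM in DOX. The DOX hearts spanned the whole NS range, and the log2 fold change of 0.04 ± 0.14 was not called (adjusted p = 0.86). In the tumor-bearing mice it was 63.6 to 112 CPM (median 65.9 CPM) with saline, the highest value being replicate 5, and 63.5, 58.4, 73.7, 67.6 and 63.7 CPM with DOX. The log2 fold change there was -0.16 ± 0.13 (adjusted p = 0.55), and 0.01 without replicate 5. Mdm4, the partner of Mdm2 that masks the activation domain of p53, had group means of 101 to 115 CPM and was not called in any comparison with TMM scaling. Scaled by library totals alone it was called as higher in Tumor+DOX against DOX (log2 fold change 0.37, adjusted p = 0.046).

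Among the genes of growth arrest, and among all 30 members, Cdkn1a had the largest log2 fold change in DOX against NS. It encodes p21, the inhibitor of cyclin-dependent kinases that carries much of the arrest by p53. The NS hearts had 21.4, 27.2, 43.6, 14.2 and 17.3 CPM and the DOX hearts 135, 160.4, 100.4, 203 and 180.0 CPM. Every DOX heart was above every NS heart, with a log2 fold change of 2.65 ± 0.64 and an adjusted p of 0.0029. A log2 fold change of 2.65 is a 6.28-fold rise. In the tumor-bearing mice, Tumor+NS hearts ran from 17.9 to 280.3 CPM with a median of 21.4 CPM, and Tumor+DOX hearts had 56.6, 134, 49.9, 63.6 and 90.03 CPM. Of the 6 Tumor+NS hearts, 4 were at or under 24.4 CPM, below all Tumor+DOX hearts, replicate 6 was at 65.2 CPM inside their range, and replicate 5 was above them all. With all libraries the log2 fold change was 0.16 ± 0.57 (adjusted p = 0.91). Without Tumor+NS replicate 5 it was 1.46 and called (adjusted p = 0.019). Cdkn1a shares 1046 bases with 1700023B13Rik on the opposite strand, a gene of mean FPKM 0.997.

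Ccng1, cyclin G1, a target that takes part in the control of Mdm2 and was the member with the highest level per length (mean FPKM 372 in NS), was the 1 member called as lower with DOX. NS hearts had 1311, 1392, 1141, 1342 and 1354 CPM, and DOX hearts 1051, 1049.9, 455, 719.6 and 1113 CPM. The groups did not overlap, but the margin between the lowest NS and the highest DOX heart was narrow. The log2 fold change was -0.58 ± 0.19 (adjusted p = 0.021), and without DOX replicate 4 the call was lost (adjusted p = 0.063). With a tumor, levels were 756 to 1284 CPM (median 1005 CPM) with saline and 1123, 1039, 925, 737 and 1028 CPM with DOX, overlapping throughout, and the log2 fold change was -0.09 ± 0.18 (adjusted p = 0.83).

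The other genes of this role were not called with DOX in either state. Btg2, an antiproliferative factor, had a log2 fold change of 0.67 ± 0.50 without a tumor and -1.17 ± 0.48 with one, and Tumor+NS replicate 5 at 349 CPM set the second value, which was -0.13 without that library. All groups share 1 estimate of the spread in this fit, and without that library Btg2 in DOX against NS was 0.68 and called (adjusted p = 0.037), as it was with only the groups compared in the fit (0.67, adjusted p = 0.039). Without DOX replicate 4 it was 0.37 and not called. The polo-like kinases Plk2 and Plk3 had log2 fold changes of 0.18 and 0.15 without a tumor and -0.26 and -0.17 with one, and both of the latter turned to 0.28 without Tumor+NS replicate 5. Gtse1, a microtubule-associated inhibitor of p53 of the dividing cell, and Psrc1, a spindle protein, were under the filter, with at most 29 and 7 counts in any library. Gtse1 had 0.38 ± 0.20 CPM in NS and 1.13 ± 0.76 CPM in DOX (SD, n = 5 each), with overlapping libraries.

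**Figure D2:**
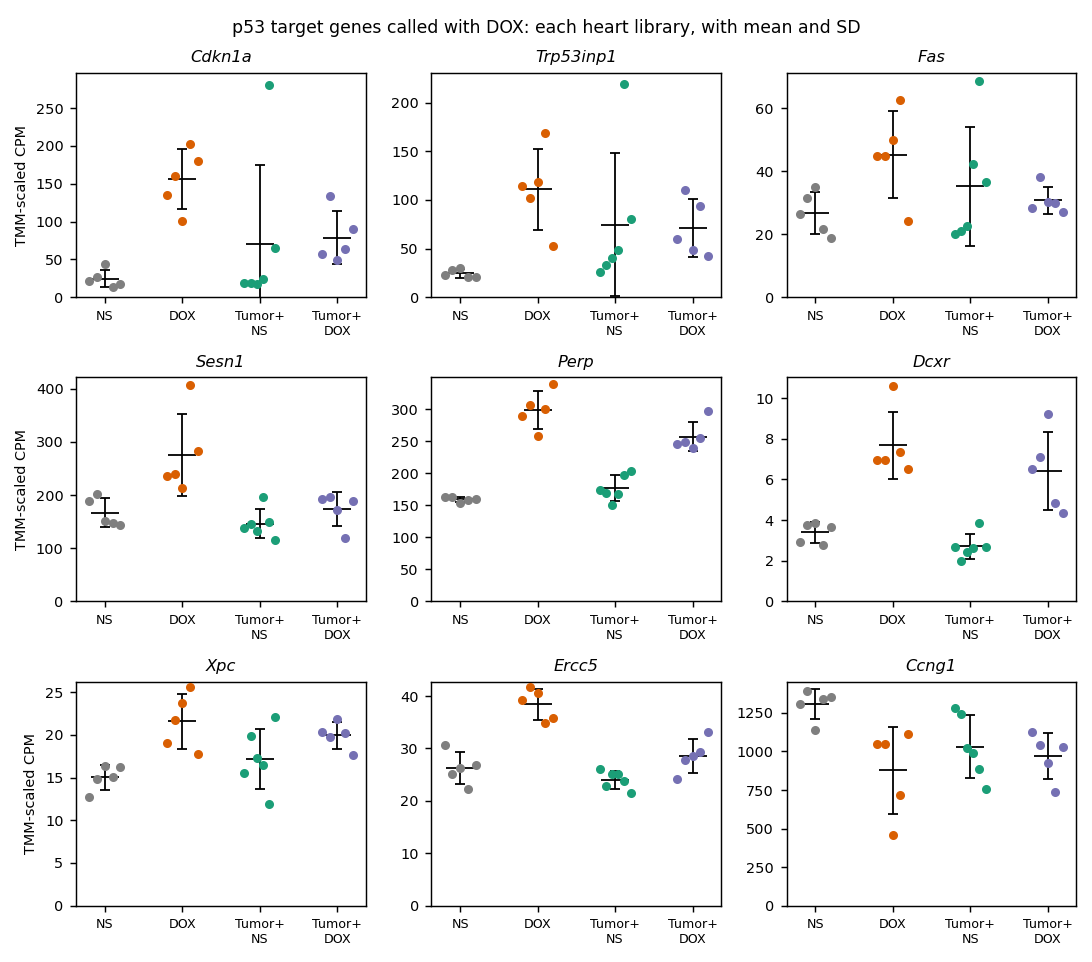
TMM-scaled CPM (y axis, from 0) of the 9 members called with DOX in either state, by group (x axis): each point is 1 heart library and the bars are the mean and SD, the SD ending at 0 where it would pass below. Cdkn1a and Trp53inp1 show 1 Tumor+NS library far above the other 5, at 280.3 and 219 CPM, and Perp and Dcxr are separated by DOX in both states.

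Of the 10 apoptosis effectors, Trp53inp1 and Perp rose in DOX against NS. The roles hold too few genes to read their counts against the 18% of all genes that rose, and the values by gene are given instead. Trp53inp1, a stress protein of autophagy and apoptosis that favours phosphorylation of p53, was at 23.2, 27.8, 30.1, 20.5 and 21.1 CPM in NS and at 115, 102, 118, 169 and 52.2 CPM in DOX. All DOX hearts were above all NS hearts, and the log2 fold change was 2.18 ± 0.46 (adjusted p = 0.0011). Tumor+NS hearts were at 26.04 to 219 CPM (median 44.4 CPM) and Tumor+DOX hearts at 60.2, 111, 48.5, 94.0 and 42.7 CPM. The tumor-bearing groups overlapped, with a log2 fold change of -0.07 ± 0.42 (adjusted p = 0.95), which turned to 0.65 without Tumor+NS replicate 5 (adjusted p = 0.21) and to 0.95 and a call without replicates 5 and 6 (adjusted p = 0.037).

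Perp, a desmosome-associated membrane protein named as a p53 apoptosis effector, rose in both states. NS hearts lay at 164, 163, 154, 158 and 160.2 CPM and DOX hearts at 289, 307, 258, 300.3 and 340.4 CPM. Tumor+NS hearts lay at 151 to 204 CPM (median 172 CPM) and Tumor+DOX hearts at 246, 249, 239, 256 and 298 CPM. DOX thus separated the hearts fully in each state. The log2 fold change was 0.90 ± 0.09 without a tumor (adjusted p = 1.0e-06) and 0.54 ± 0.08 with one (adjusted p = 0.0013), and both calls held without any 1 of the 21 libraries. The difference between the 2 changes was -0.37 ± 0.12 and was not called (adjusted p = 0.061), but was on leaving out DOX replicate 3, Tumor+NS replicate 3 or Tumor+DOX replicate 5, at the lowest adjusted p of 0.039, and by DESeq2 (-0.38, adjusted p = 0.031).

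The remaining 8 effectors were not called with DOX in either state. Bax, the pore-forming protein of the mitochondrial outer membrane, had 7.98 ± 1.67 CPM in NS and 6.27 ± 1.22 CPM in DOX (SD, n = 5 each), a log2 fold change of -0.35 ± 0.18 (adjusted p = 0.13), and -0.00 ± 0.17 with a tumor. The BH3-only genes Bbc3 (Puma) and Pmaip1 (Noxa) were low, at 2 to 33 and 2 to 94 counts per library. Pmaip1 had a log2 fold change with DOX of 0.90 ± 0.53 without a tumor and -0.63 ± 0.44 with one, the latter being -0.13 without Tumor+NS replicate 5. Apaf1, the scaffold of the apoptosome, the nuclease Aen, the endoplasmic reticulum protein Ei24, the Akt inhibitor Phlda3 and the RNA-binding protein Zmat3 had log2 fold changes of -0.09 to 0.10 without a tumor and -0.29 to 0.16 with one, and without Tumor+NS replicate 5 Aen was -0.16 and Apaf1 -0.04.

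Of the 3 death receptors, Fas rose with DOX alone. Fas, the receptor of Fas ligand, was at 26.4, 31.5, 34.9, 21.7 and 18.8 CPM in NS and at 44.8, 45.0, 49.8, 62.6 and 24.3 CPM in DOX. Of the DOX hearts, 4 were above every NS heart and replicate 5 was within the NS range. The log2 fold change of 0.76 ± 0.29 was called narrowly (adjusted p = 0.042), and the call was lost in 7 of the 21 fits that left out 1 library, with adjusted p of 0.059 to 0.11 on leaving out NS replicates 1, 4 or 5 or DOX replicates 1, 2, 3 or 4. It was also lost when libraries were scaled by their totals alone (log2 fold change 0.62, adjusted p = 0.092). Limma on FPKM, at a pseudocount of 0.1 or 1, and the replicate number as a block ended it too. With a tumor, levels were 20.01 to 68.6 CPM (median 29.6 CPM) with saline and 28.5, 38.2, 30.1, 29.9 and 27.0 CPM with DOX, and the log2 fold change was -0.20 ± 0.27 (adjusted p = 0.74), and 0.11 without Tumor+NS replicate 5. Tnfrsf10b, the mouse TRAIL receptor, and Eda2r, the ectodysplasin receptor, had log2 fold changes of -0.28 ± 0.31 and -0.37 ± 0.32 without a tumor and -0.36 ± 0.29 and 0.17 ± 0.30 with one, and neither was called. Without Tumor+NS replicate 5 the tumor-bearing value of Tnfrsf10b was 0.04 and that of Eda2r 0.28.

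Of the 5 genes of DNA repair and nucleotide supply, Xpc and Ercc5 rose with DOX in non-tumor-bearing mice. Both belong to nucleotide excision repair, in which Xpc recognises the lesion and Ercc5 (Xpg) cuts on its 3′ side. Xpc was at 12.7, 14.8, 16.4, 15.01 and 16.2 CPM in NS and at 19.1, 21.8, 23.8, 25.5 and 17.7 CPM in DOX. Ercc5 was at 30.6, 25.04, 26.3, 22.3 and 26.8 CPM in NS and at 39.2, 41.7, 40.5, 34.8 and 35.9 CPM in DOX. Neither gene overlapped between the groups, with log2 fold changes of 0.52 ± 0.14 for Xpc (adjusted p = 0.0060) and 0.55 ± 0.10 for Ercc5 (adjusted p = 0.00023). Scaling by library totals alone ended the call of Xpc (log2 fold change 0.38, adjusted p = 0.082), as did limma at either pseudocount. Its lowest log2 fold change under any setting was 0.29. In tumor-bearing mice, Xpc was at 11.9 to 22.1 CPM (median 16.9 CPM) with saline and at 20.3, 19.7, 21.9, 20.2 and 17.6 CPM with DOX, and Ercc5 at 21.5 to 26.04 CPM (median 24.4 CPM) with saline and at 24.1, 27.8, 28.5, 29.3 and 33.1 CPM with DOX. The tumor-bearing groups overlapped for both, and the log2 fold changes of 0.21 ± 0.13 and 0.25 ± 0.09 were not called (adjusted p = 0.38 and 0.13). Without Tumor+NS replicate 5 that of Xpc was 0.13.

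Ddb2, the other damage sensor of excision repair, was just short of the call in tumor-bearing mice. It had 2.99 ± 1.61 CPM in Tumor+NS (SD, n = 6) and 5.84 ± 0.93 CPM in Tumor+DOX (SD, n = 5), a log2 fold change of 0.96 ± 0.28 with an adjusted p of 0.053. Without Tumor+NS replicate 6, the 1 saline heart inside the DOX range, it was 1.28 and called (adjusted p = 0.0043), and with all libraries DESeq2 called it (0.95, adjusted p = 0.017). Without Tumor+NS replicate 5 it was 0.80, and 20 of the 21 edgeR fits without 1 library gave no call, at adjusted p up to 0.12. Without a tumor the log2 fold change was 0.55 ± 0.30 (adjusted p = 0.15), and the gene shares 2527 bases with Acp2 on the opposite strand. Polk, a translesion polymerase, and Rrm2b, the p53-induced subunit of ribonucleotide reductase, had log2 fold changes of 0.16 ± 0.21 and -0.24 ± 0.12 without a tumor and 0.13 ± 0.19 and 0.08 ± 0.11 in tumor-bearing mice, where they were 0.02 and -0.01 without Tumor+NS replicate 5. Rrm2b in DOX against NS was called as lower with scaling by library totals (-0.37, adjusted p = 0.028) and without NS replicate 3 or Tumor+NS replicate 5, the latter at -0.23 with an adjusted p of 0.039, and it shares 466 bases with the far more abundant Gm3362 on the same strand, so that its counts are uncertain. Fas on the same strand, and Polk and Sulf2 on the opposite one, also share 154 to 388 bases with an expressed neighbour.

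Of the 3 metabolic and antioxidant members, Dcxr and Sesn1 rose. Dcxr, dicarbonyl and L-xylulose reductase, which detoxifies carbonyls, was low and rose in both states. NS hearts had 2.90, 3.78, 3.84, 2.79 and 3.66 CPM and DOX hearts 6.97, 6.98, 10.6, 7.33 and 6.52 CPM. Tumor+NS hearts had 1.99 to 3.87 CPM (median 2.66 CPM) and Tumor+DOX hearts 6.51, 7.09, 9.20, 4.86 and 4.37 CPM. All hearts given DOX were above all hearts given saline, within each state and across both. The log2 fold change was 1.18 ± 0.21 (adjusted p = 0.00026) without a tumor and 1.23 ± 0.20 (adjusted p = 0.0019) with one, each call holding without any 1 library, and the difference between them was 0.06 ± 0.29 (adjusted p = 0.92).

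Sesn1, sestrin 1, which restrains mTORC1 and oxidative stress, was at 189, 202, 152, 148 and 143 CPM in NS and at 235, 239, 214, 407 and 282 CPM in DOX. The groups were apart, with a log2 fold change of 0.72 ± 0.17 (adjusted p = 0.0026). With a tumor it was at 116 to 196 CPM (median 142 CPM) with saline and at 193, 197, 171, 119 and 189 CPM with DOX, overlapping, with a log2 fold change of 0.25 ± 0.16 (adjusted p = 0.42). Tigar, which lowers glycolytic flux in favour of the pentose phosphate pathway, stayed at group means of 35.1 to 37.5 CPM and had log2 fold changes of -0.05 ± 0.16 without a tumor and 0.03 ± 0.15 with one, the latter being -0.09 without Tumor+NS replicate 5. Sulf2, an extracellular sulfatase that trims heparan sulfate, was 31.2 ± 3.88 CPM in Tumor+NS (SD, n = 6) and 43.6 ± 3.17 CPM in Tumor+DOX (SD, n = 5), without overlap, yet its log2 fold change of 0.48 ± 0.17 was not called (adjusted p = 0.099), and was without DOX replicate 3, a library of neither group (adjusted p = 0.037). Without a tumor the DOX hearts spread from 23.0 to 58.9 CPM around an NS mean of 36.4 CPM, with a log2 fold change of 0.16 ± 0.18 (adjusted p = 0.51).

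**Figure D3:**
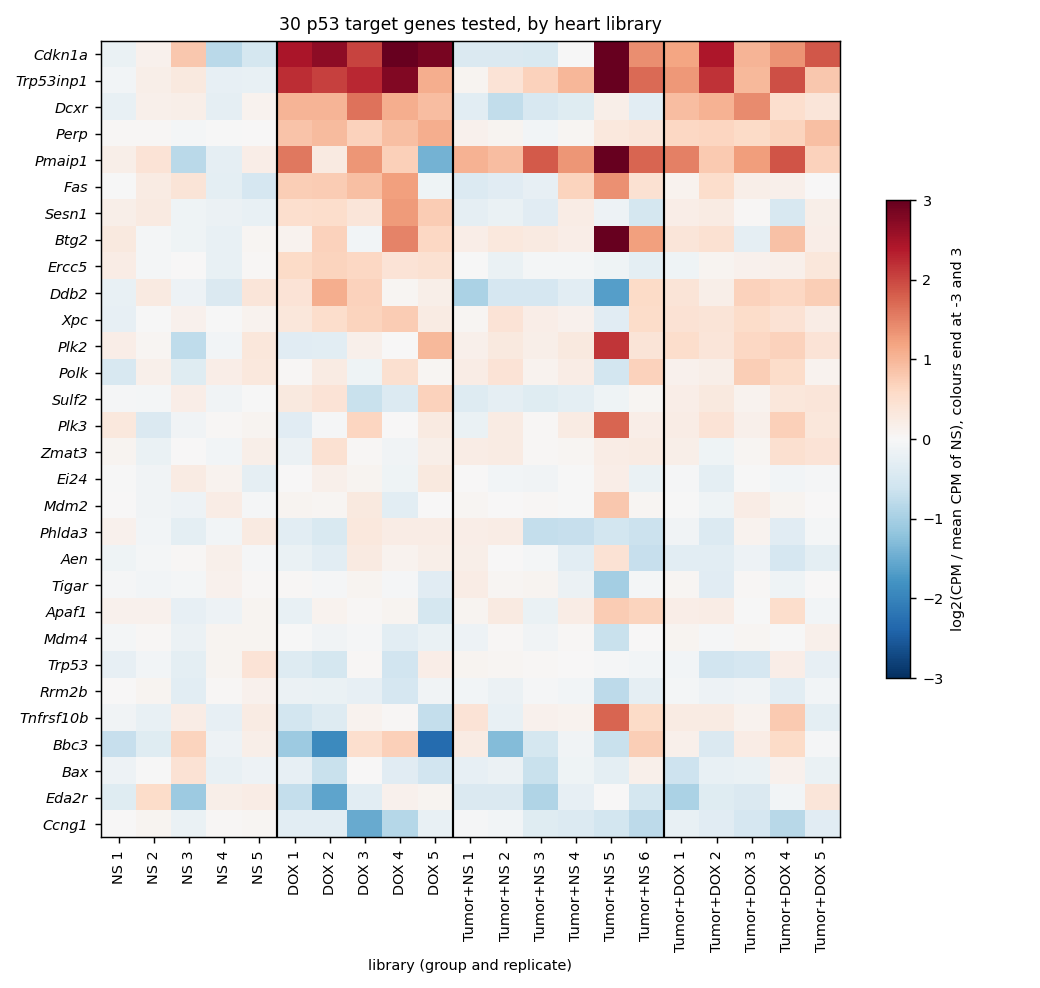
Colour scale of log2(CPM divided by the mean CPM of NS) for the 30 members tested (y axis, ordered by change in DOX against NS) in each of the 21 libraries (x axis). The red block at the top of the DOX columns is Cdkn1a, Trp53inp1, Dcxr and Perp, and the column Tumor+NS 5 is darkest for Cdkn1a, Trp53inp1, Pmaip1 and Btg2, with Plk2 next.

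The tumor without DOX raised 2 members against NS, Pmaip1 and Trp53inp1, which are 6.67% of the 30 beside 5.0% of all genes. None fell in edgeR beside 1.29% of all genes, with 0 at an unadjusted p under 0.05 and 0 by DESeq2 and limma. Pmaip1 was at 0.64, 0.77, 0.29, 0.45 and 0.65 CPM in NS and at 1.13 to 5.69 CPM (median 1.79 CPM) in Tumor+NS, without overlap, with a log2 fold change of 2.03 ± 0.49 (adjusted p = 0.012). Its mean FPKM over all libraries, 0.513, passed the minimum of 0.5 through the tumor-bearing groups, at 0.853 in Tumor+NS against 0.204 in NS, so that the filter favoured this gene and the share of members is not read as a result. It was 1.54 and still called without Tumor+NS replicate 5 (adjusted p = 0.034), and 1.45 and not called without replicates 5 and 6 (adjusted p = 0.094). Trp53inp1 had a log2 fold change of 1.60 ± 0.44 (adjusted p = 0.032), with hearts that overlapped between NS and Tumor+NS. It was 0.90 and not called without replicate 5 (adjusted p = 0.11), and the call was lost in 7 of 21 fits without 1 library, any of the 5 NS libraries and Tumor+NS replicates 5 and 6, at adjusted p of 0.056 to 0.11. Cdkn1a had a log2 fold change of 1.51 ± 0.60 that was not called (adjusted p = 0.15) and that was 0.22 without replicate 5 (adjusted p = 0.83). Btg2 at 1.55 ± 0.49 was not called either (adjusted p = 0.065), but was on leaving out any 1 of Tumor+NS replicates 1 to 4, at the lowest adjusted p of 0.030, by DESeq2 (adjusted p = 0.034) and with no filter (adjusted p = 0.013), and was 0.51 without replicate 5 (adjusted p = 0.34). Neutrophil markers summed to 449 to 4125 CPM in these Tumor+NS hearts and to at most 2.49 CPM in NS, and their part in the change of Pmaip1 was not tested.

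Among hearts given DOX, those with a tumor had lower Ercc5 and Sesn1 than those without, which are 6.67% of the members beside 7.93% of all genes. The log2 fold changes were -0.43 ± 0.10 for Ercc5 (adjusted p = 0.0045) and -0.66 ± 0.17 for Sesn1 (adjusted p = 0.011), and for both genes every Tumor+DOX heart was below every DOX heart. Scaling by library totals alone moved the median of all genes in this comparison by 0.18 and ended the call of Ercc5 (-0.24, adjusted p = 0.13). None of the members rose in edgeR beside 9.52% of all genes, with 0 at an unadjusted p under 0.05 and 0 by DESeq2 and limma, though Mdm4 was called as higher with library totals alone (0.37, adjusted p = 0.046). Cdkn1a was -0.98 ± 0.60 (adjusted p = 0.27) with all libraries and, at the same log2 fold change, was called as lower without Tumor+NS replicate 5, a library of neither group (adjusted p = 0.044).

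The change with DOX differed between the states for 1 member in the test of the interaction. For Trp53inp1, the log2 fold change with a tumor was lower than that without by 2.25 ± 0.62 (adjusted p = 0.031), so that 3.33% of the members lay on the negative side beside 5.0% of all genes. There, 7 members had an unadjusted p under 0.05, DESeq2 called 3 (Trp53inp1, Cdkn1a and Perp) and limma called 0. On the positive side the count was 0 beside 3.95% of all genes, with 0 at an unadjusted p under 0.05 and 0 by DESeq2 and limma. The Trp53inp1 difference was lost in 7 of 21 fits without 1 library, at adjusted p of 0.052 to 0.056, namely without NS replicates 4 or 5, DOX replicates 3 or 4, or Tumor+DOX replicates 1, 3 or 5. Without Tumor+NS replicate 5 it was -1.54 and called (adjusted p = 0.027), and without replicates 5 and 6 it was -1.24 (adjusted p = 0.053). For Cdkn1a the difference was -2.49 ± 0.85 (adjusted p = 0.065), was called without Tumor+NS replicates 1, 2 or 3, at the lowest adjusted p of 0.039, by DESeq2 (-2.53, adjusted p = 0.040) and with no filter (-2.51, adjusted p = 0.029), and shrank to -1.20 without replicate 5 (adjusted p = 0.13). The other members that were called in DOX against NS and not with a tumor, Fas, Sesn1, Ercc5, Xpc and Ccng1, had interaction adjusted p of 0.12 to 0.29 and were thus not shown to differ between the states.

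The tumor-bearing change of several members turned on Tumor+NS replicate 5. With all libraries, Pearson's correlation over the 30 members between the log2 fold changes without and with a tumor was 0.14 and Spearman's 0.16, and 16 members shared their sign. Without that library they were 0.72 and 0.50, with 22 shared signs, and without replicates 5 and 6 they were 0.76 and 0.55, with 21. These are descriptions across genes, which are not independent, and the 2 comparisons share no library. The largest shifts on leaving out replicate 5 were 1.30 for Cdkn1a, 1.04 for Btg2, 0.71 for Trp53inp1, 0.54 for Plk2 and 0.50 for Pmaip1, all upward. Perp and Dcxr stayed at 0.58 and 1.36.

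**Figure D4:**
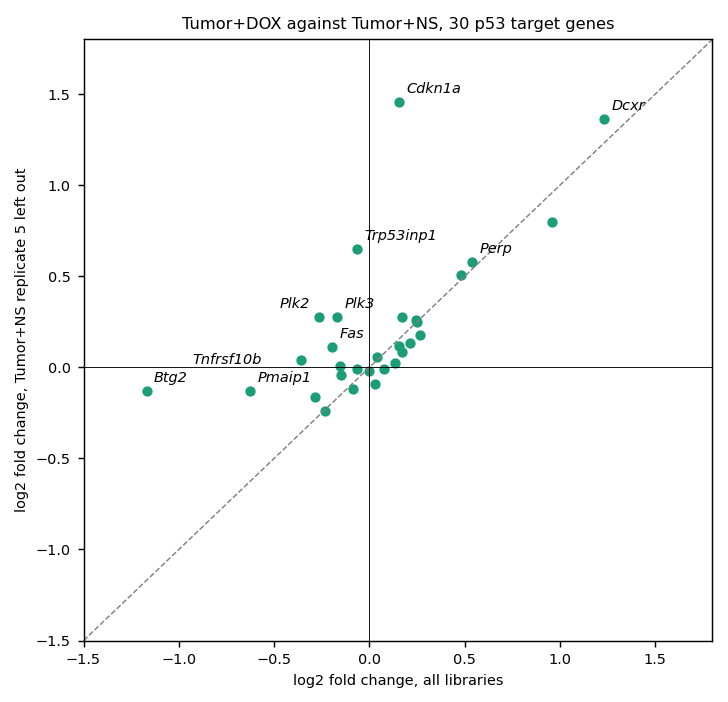
Log2 fold change of each of the 30 members in Tumor+DOX against Tumor+NS with all libraries (x axis) and with Tumor+NS replicate 5 left out (y axis); the dashed line marks equal values. Cdkn1a (0.16 to 1.46), Btg2 (-1.17 to -0.13) and Trp53inp1 (-0.07 to 0.65) lie well above the line, and Perp and Dcxr lie close to it.

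Among genes that act on p53, some rose and some fell with DOX. Of 17 listed kinases and regulators, 13 were tested, and in non-tumor-bearing mice 4 rose (Usp7, Ppm1d, Rchy1 and Sirt1) and 3 fell (Chek2, Trp53bp1 and Hipk2), beside 18% and 18.2% of all genes, with a median log2 fold change of -0.03. Chek2, the checkpoint kinase that phosphorylates p53 after DNA breaks, fell furthest, from 10.6 ± 1.02 CPM in NS to 2.83 ± 0.87 CPM in DOX (SD, n = 5 each), a log2 fold change of -1.90 ± 0.31 (adjusted p = 0.00011). Usp7, the deubiquitinase of Mdm2 and p53 and the most abundant of the list per length, rose by 0.58 ± 0.12 (adjusted p = 0.0010). In tumor-bearing mice edgeR called 0 of the 13, with 2 lower and 0 higher at an unadjusted p under 0.05, and DESeq2 called 1 lower and limma 0. Chek2 was -0.85 there (adjusted p = 0.097) and was called without Tumor+NS replicate 5 (-1.02, adjusted p = 0.014).

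Further p53 targets outside the 32 gave, in DOX against NS, 1 gene that rose and 3 that fell of 16 tested among 23 listed, beside 18% and 18.2% of all genes, with a median log2 fold change of -0.16. In tumor-bearing mice 2 of the 16 fell, Steap3 among them, beside 2.54% of all genes, and edgeR called 0 as higher, with 1 at an unadjusted p under 0.05 and 0 by DESeq2 and limma. Igfbp3, which binds insulin-like growth factors, rose from 45.1 ± 7.92 CPM in NS to 232 ± 81.0 CPM in DOX, a log2 fold change of 2.36 ± 0.40 (adjusted p = 0.00015), and with a tumor it was 0.88 ± 0.36 (adjusted p = 0.17). Without Tumor+NS replicate 5, the highest library of its group for this gene, the latter was 1.35 and called (adjusted p = 0.010). Steap3, a ferrireductase, fell by 1.28 ± 0.19 on the log2 scale without a tumor (adjusted p = 4.8e-05) and by 0.69 ± 0.18 with one (adjusted p = 0.033), and the other falls without a tumor were Sesn3 and Siva1. Ak1, adenylate kinase 1 and the most abundant of the list per length, had a log2 fold change of -0.24 ± 0.16 and was not called. Gdf15, a stress cytokine often used as a readout of p53, was under the filter, with at most 30 counts in any heart.

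Of 13 listed genes of the mitochondrial apoptosis machinery 12 were tested, and 3 rose in DOX against NS (Bcl2l1, Bcl2l11 and Diablo) and 2 fell (Bak1 and Xiap), beside 18% and 18.2% of all genes, with a median log2 fold change of 0.00. DESeq2 called 4 as higher and 2 as lower, and limma 2 and 5. Bcl2l1 encodes the survival protein Bcl-xL, and Bcl2l11 the BH3-only protein Bim, which favours death. Cycs, cytochrome c and the most abundant of the list per length, had 703 ± 14.2 CPM in NS and 777 ± 184 CPM in DOX (SD, n = 5 each). In tumor-bearing mice edgeR called 0 of the 12, with 1 higher and 1 lower at an unadjusted p under 0.05 and 0 by DESeq2 and limma, and Bcl2l11 was called as higher without Tumor+NS replicate 5 (0.66, adjusted p = 0.049).

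Several partners of p21 in the cell cycle fell with DOX. Of 7 listed and tested, 4 fell in DOX against NS (Ccnd1, Ccnd2, Cdk4 and Cdk6), beside 18.2% of all genes, 0 rose, also at an unadjusted p under 0.05 and by DESeq2 and limma, and the median log2 fold change was -0.51. Of the 3 not called, Ccnd3 had a log2 fold change of -0.26, Rb1 of 0.19 and Cdk2 of 0.21. Cdk6, a kinase of the early cell cycle, fell by 1.38 ± 0.20 without a tumor (adjusted p = 4.3e-05) and by 0.87 ± 0.19 with one (adjusted p = 0.013). Cdk4, its paralog and the most abundant of the list per length, fell by 0.51 ± 0.11 (adjusted p = 0.00093) and by 0.35 ± 0.10 (adjusted p = 0.044), and these were the 2 falls with a tumor, beside 2.54% of all genes. Of 15 proliferation genes 6 were above the filter, and 1 fell and 1 rose beside 18.2% and 18% of all genes. Mki67, the proliferation marker, fell from 3.84 ± 0.91 to 0.95 ± 0.57 CPM (SD, n = 5 each), a log2 fold change of -2.01 ± 0.56 (adjusted p = 0.0083), and Pcna, the replication clamp, itself a known p53 target and the most abundant of them per length, rose by 0.42 ± 0.12 (adjusted p = 0.0094). In tumor-bearing mice edgeR called 0 of these 6, with 4 lower and 0 higher at an unadjusted p under 0.05, and DESeq2 called 1 lower and limma 0. All 6 were highest of Tumor+NS in replicate 5, and without it 0 were lower at an unadjusted p under 0.05, with Mki67 at -0.51 against -1.07 with all libraries and Rrm2 at -0.64 against -1.40. These lists were chosen with earlier results of these data known, and their counts are descriptions.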

How the data were processed

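The submitters' processing notes name Cutadapt, FastQC, HISAT2, HTSeq 0.6.1, DESeq2 1.34.0 and the build GRCm39, without roles, and the strand setting is not given in the sources used here. The authors deposited 1 table of raw read counts and FPKM values per gene and library, and the deposited FPKM values equal the count scaled to exonic length and library total, within 0.0051, in 100% of values. Depth was 13521200 to 18601445 counts per library.

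Counts were tested with edgeR 4.0.16 (R 4.3.3) by its quasi-likelihood test after TMM scaling, all 4 groups and 21 libraries entering the same fit, on the 13990 genes averaging 0.5 FPKM or more, with Benjamini-Hochberg adjustment over all of them. CPM values use TMM-scaled totals of the genes tested. The SE of an edgeR log2 fold change was worked back from the test, as its size divided by the square root of the F statistic. Limma 3.58.1, DESeq2 1.42.0 and other scalings, filters, thresholds and sample sets were alternatives. Limma was run on log2 of FPKM plus 0.1 or 1, without TMM, so it differed from edgeR in scaling as well as in test. At 0.1, its median log2 fold change over all genes was -0.14 in DOX against NS and 0.19 in Tumor+DOX against DOX. The steps were tested on simulated data. The members, lists and the rule for named genes (every member by role, values by library for those called with DOX and for Trp53, Cdkn1a and Mdm2, and of each further list the most abundant gene and those past 2-fold) were chosen with earlier results of these data known. One gene that this rule names is not reported here. Replicates differed by more than counting error, with a chi-square per degree of freedom of at least 5.95. Promoter sequences are from RefSeq (GRCm38.p6) and were not placed on the build of the counts.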

Additional observations from a re-analysis of the deposited data

Results flagged for a closer look

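A library lay far from the others of its group, by Dixon's limit for the group's size, in 18 of 120 groups of member and condition, where chance flags about 1 in 20 groups. The share over all genes tested was not computed, so the count is not read as a trait of the members. Tumor+NS replicate 5 accounted for 11 of the 18, and over all genes tested it was the highest of its group in 33.0% and the lowest in 32.4%. It was the highest of its group for Mdm2 (112 CPM, next 66.5), Cdkn1a (280.3, next 65.2), Btg2 (349, next 79.4), Plk2 (123, next 36.1), Plk3 (9.56, next 3.32), Pmaip1 (5.69, next 2.23), Trp53inp1 (219, next 80.1), Tnfrsf10b (12.3, next 5.44) and Dcxr (3.87, next 2.69), and the lowest for Mdm4 (69.6, next 99.6) and Rrm2b (31.9, next 45.6). Its part in each comparison is given by the values without it.

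The other far libraries were single genes in DOX replicate 5 for Plk2 (54.2 CPM, highest), DOX replicate 3 for Dcxr (10.6, highest), NS replicate 3 for Bax (10.9, highest) and Sulf2 (41.7, highest), Tumor+DOX replicate 2 for Ei24 (53.8, lowest) and Fas (38.2, highest), and Tumor+DOX replicate 5 for Perp (298, highest).

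The change of Trp53inp1 with DOX differed between the states in the test of the interaction, by -2.25 on the log2 scale (with a tumor minus without, edgeR adjusted p = 0.031).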

How the results depend on the processing

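Counts of members called moved as follows. For DOX against NS the count was 9, between 7 on leaving out DOX replicate 4 and 11 on leaving out Tumor+NS replicate 5, and 3 at 2-fold or more. With limma 6 were higher and 2 lower there, as Fas and Xpc lost their calls and Rrm2b gained one as lower. For Tumor+DOX against Tumor+NS it was 2, 2 to 3 without 1 library, 1 with a mean FPKM of at least 5 or 2-fold or more, and 6 without Tumor+NS replicates 5 and 6, an alternative chosen after seeing the data. For Tumor+NS against NS it was 2, 1 to 3 without 1 library, 1 with limma at either pseudocount, a mean FPKM of at least 5 or only the groups compared, and 0 without replicates 5 and 6 or at an adjusted p under 0.01. For Tumor+DOX against DOX it was 2, 2 to 3 without 1 library, 1 with limma at either pseudocount, a mean FPKM of at least 5 or an adjusted p under 0.01, 0 at 2-fold or more and 5 without replicates 5 and 6. For the interaction it was 1, 0 to 3 without 1 library, 3 with DESeq2, 2 with no filter, and 0 with limma at either pseudocount, without replicates 5 and 6 or at an adjusted p under 0.01. Fewer genes tested and fewer samples are part of these settings by construction, and the cause of the other moves was not tested.

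Among values called under at least 1 of the settings compared, 1 changed sign: Trp53inp1 in Tumor+DOX against Tumor+NS went from -0.07 to 0.95 without Tumor+NS replicates 5 and 6. Values called under neither setting also changed sign there, such as Plk2 (-0.26 to 0.31), Plk3 (-0.17 to 0.30), Fas (-0.20 to 0.21), Tnfrsf10b (-0.36 to 0.15) and Btg2 (-1.17 to 0.13). Of the other values of members, 4739 kept their side of the threshold, 58 lost and 42 gained a call. Scaling by library totals alone moved the median of all genes by -0.14 in DOX against NS, 0.18 in Tumor+DOX against DOX and 0.14 in the interaction.

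Same-numbered libraries of different groups showed no strong shared deviation (correlations of -0.273 to 0.243 over 30 pairs), and the main fit used no pairing. The labels do not say what the numbers stand for. With the replicate number as a block, 0 members were called in Tumor+NS against NS and 0 in the interaction, and the other counts stayed within 1.5 times.

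Counts of 2 to 33 per library limit Bbc3, and Gtse1 and Psrc1 were too low to test.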
